A study of Homo sapiens with 10 samples.

Results

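The genes described here are the core regulators of the G1 phase of the cell cycle: the D-type cyclins CCND1, CCND2 and CCND3, their kinases CDK4 and CDK6, the CIP/KIP inhibitors CDKN1B and CDKN1C, the INK4 inhibitors CDKN2A and CDKN2B, and RB1. They were chosen by name, and every probe set annotated with exactly 1 of these symbols was used, which gave 29 probe sets for 10 of the 19775 genes on the array. Of these genes, 9 passed the filter on low intensity and were tested, and CCND2 did not pass it. Of the 29 probe sets, 20 passed the same filter applied to probe sets.

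The arrays measured total RNA of cultured human gastric cancer cells. The labels place 4 of them in the side population and 4 in the non-side population, lettered a to d in each, and 2 among unsorted cells, lettered a and b. The titles give both sorted populations the same replicate group names, SPa to SPd, and name the unsorted groups UCPa and UCPb. Whether a shared name marks a shared culture or sort is not stated, and the main fit did not use the letters. A side population is the small fraction of cells that exports a Hoechst DNA dye and therefore appears dim in flow sorting, and the non-side population is the dye-bright remainder. The origin label of all 10 arrays names the gastric carcinoma lines AGS and MKN 45. The source label names AGS for 8 arrays and no line for side population replicates a and b. All cells grew in RPMI medium with fetal bovine serum, and no genetic change or drug treatment is named. Whether unsorted cells had been stained is not stated in the labels. Nothing in the labels says that replicates came from separate cultures, so a p-value covers only the spread among these arrays, part or all of which may be technical. In RNA from many cells, fewer cells of a type and less RNA per cell cannot be told apart.

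In the G1 phase, D-type cyclins bind CDK4 or CDK6, and the active kinase phosphorylates the RB1 protein, which then releases E2F transcription factors and lets the cell enter S phase. INK4 proteins such as p16 (CDKN2A) and p15 (CDKN2B) bind CDK4 and CDK6 and keep D cyclins away from them, while p27 (CDKN1B) and p57 (CDKN1C) bind cyclin and kinase together. Gastric cancers often carry gains of G1 cyclins or kinases or silencing of INK4 genes, and stem-like cells are often described as slowly cycling, which is the background for looking at these genes in a side population.

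Values are deposited intensities on a linear scale. Differences are of mean log2(intensity + 6.1), with the standard error (SE) of 1 limma fit over all 10 arrays. A gene was called at a Benjamini-Hochberg adjusted p under 0.05 over the 9888 genes tested. Each gene was tested through its probe set of highest mean log2 intensity, and the other probe sets are given beside it. Intensities of different probe sets cannot be set against each other, so every comparison is between groups of arrays.

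Epithelial identity was clear on every array: all 6 epithelial markers (EPCAM, KRT8, KRT18, KRT19, CLDN4, CLDN7) lay above the array median on all 10 arrays. Of 4 measured leukocyte, 4 endothelial and 6 fibroblast markers, 1, 0 and 1 did so: CD79A read 174 to 740.4 and COL1A1 1018 to 2010. PECAM1 lay below the array median only in non-side population c and d (52.8 and 61.8) and read 102 to 201 on the other arrays. CD14 and DCN passed it on some arrays, with highest readings of 112.1 and 120.4, and PDGFRB in non-side population d (139.3). PTPRC, CD3E, VWF, CDH5, KDR, COL1A2, COL3A1 and LUM lay below it on all arrays. The 3 genes known to be high in MKN 45 cells had summed intensities of 12478 to 16004 in the side population, 11398 to 16139 in the non-side population and 13817 to 14396 in unsorted cells. The 3' to 5' ratio of the actin control stood at 3.34 in side population a, against 0.987 to 1.28 for the 9 remaining arrays. For the GAPDH control it was 1.87 in side population a, against 0.864 to 1.06 for the 9 remaining arrays. Of the MKN 45 genes, MET and CEACAM5 read higher on all 8 sorted arrays (1334 to 3875 and 1190 to 3374) than in unsorted cells (1219 and 1269.5, and 339.6 and 477), and CEACAM6 read lower (8443 to 10116 against 12208 and 12701). None of the 3 was called between the sorted populations. These markers therefore move with the comparisons against unsorted cells below, and their part in those results was not tested.

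The promoters of CDK6 and CDKN2B are shown because these genes, together with CDKN1C, had representative probe sets that read higher on all 8 sorted arrays than on both unsorted arrays. Each run is 150 bases of the minus strand of GRCh38.p14, 5′ to 3′, ending 10 bases before a RefSeq start. For CDK6 this was the outermost of the starts at hand. The runs lie at chr7:92836584-92836733 for CDK6 and chr9:22009316-22009465 for CDKN2B. Capitals mark the GC box, GGGCGG on either strand, a motif known to be bound by SP1.
CDK6: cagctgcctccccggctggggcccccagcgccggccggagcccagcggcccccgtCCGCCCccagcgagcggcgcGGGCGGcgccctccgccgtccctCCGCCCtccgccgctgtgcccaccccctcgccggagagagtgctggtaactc
CDKN2B: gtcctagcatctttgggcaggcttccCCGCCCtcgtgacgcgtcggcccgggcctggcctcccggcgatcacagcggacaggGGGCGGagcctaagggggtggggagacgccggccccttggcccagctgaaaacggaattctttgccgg

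The CDK6 stretch holds 3 GC boxes and the CDKN2B stretch 2. The window of the other CDK6 start at hand, chr7:92833910-92834209, held none. RefSeq windows of 300 bases around a gene start were at hand for 7 of the 10 genes, CCND3, CDK4, CDK6, CDKN1B, CDKN2A, CDKN2B and RB1, in 11 windows. Of these, 7 held a GC box, against 45% of all 35116 windows. The EGR1 motif, searched on both strands as GCGTGGGCG or GCGGGGGCG, was in 1 member window, that of a CCND3 start, against 5.77% of all windows. The E2F motif, searched on both strands as TTTCGCGC or TTTGGCGC, was in 0 of the 11 member windows and in 1.15% of all. The only RB1 window, chr13:48476200-48476499, matched none of these motifs. Its GC content was 38.3%, against 60.3% to 78% in the other member windows. No RB1 start elsewhere was searched. These are counts of letters, and nothing about binding was measured.

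Between the side population and the non-side population, none of the 9 tested G1 genes was called: 6 had a higher and 3 a lower mean in the side population, with a median difference of 0.07 on the log2 scale against 0.04 over all genes. The background was the same, since limma called 0% of all 9888 genes, of which 430 had an unadjusted p under 0.05. None of the 9 genes had groups that did not overlap, against 1.59% of all genes. Among the 20 probe sets tested, 13 were higher and 7 lower in the side population, and again 0% of the 20549 probe sets tested were called.

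Against unsorted cells, the side population had 0 of 9 G1 genes called, against 2.35% of all genes, and the non-side population had 1 of 9, CDKN1C, against 3.52%. Groups did not overlap for 4 of 9 genes in the side population (36.7% of all genes) and for 5 of 9 in the non-side population (31.9%). In both comparisons 4 of the 9 genes were higher and 5 lower in the sorted cells, with medians of -0.00 and -0.04 against 0.04 and -0.01 over all genes. On single probe sets, 0 of 20 were called in the side population, against 2.1% of all probe sets, and 1 of 20, a CCND1 probe set, in the non-side population, against 3.58%. The 2 comparisons share the unsorted arrays.

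**Figure D1:**
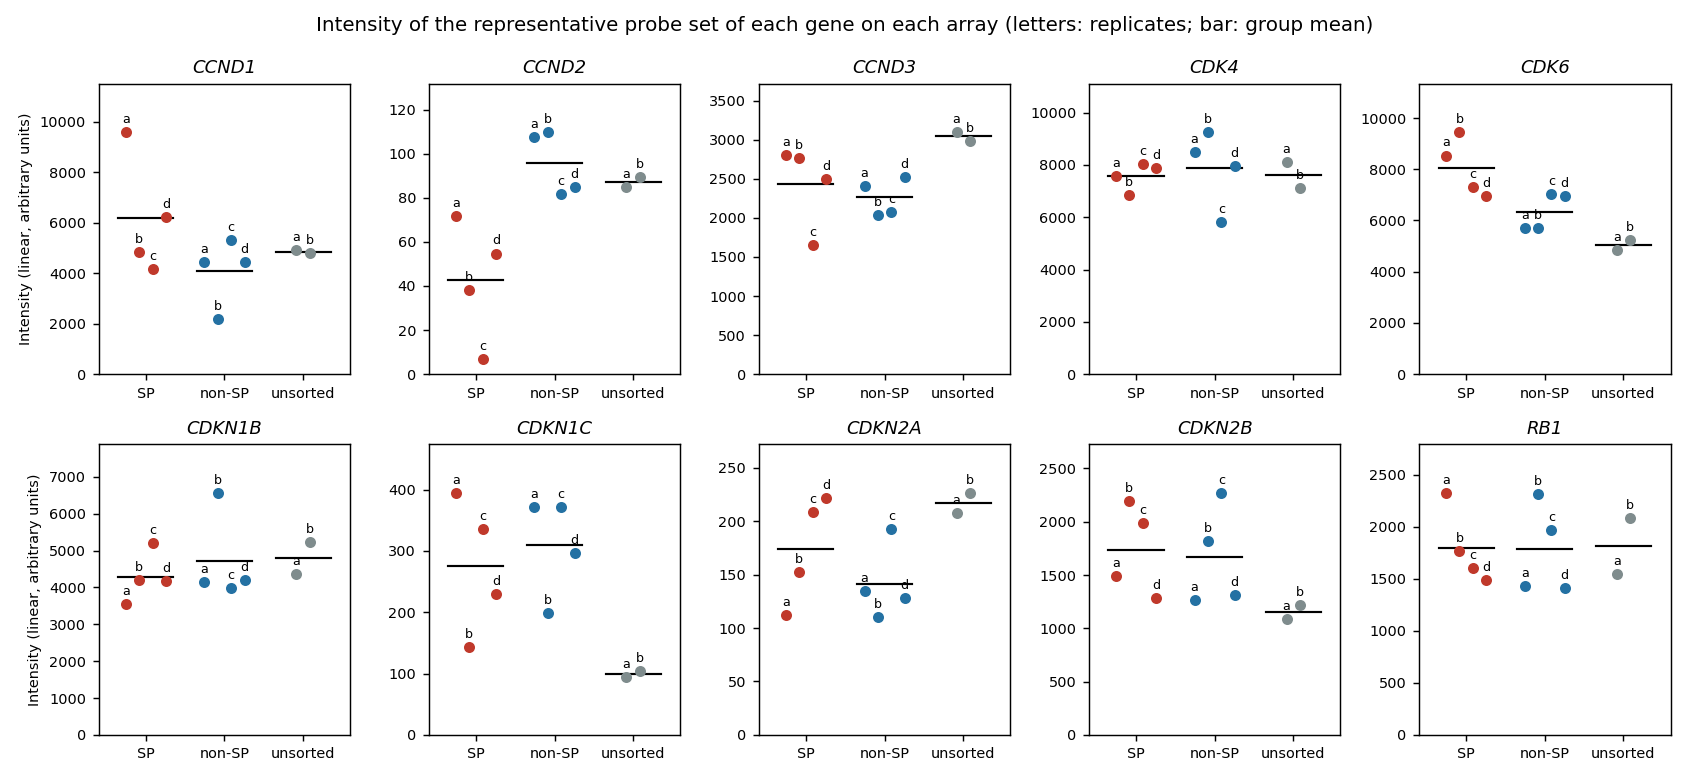
Deposited intensity (linear, arbitrary units, axes from 0) of the representative probe set of each of the 10 G1 genes on each array, with side population (SP), non-side population (non-SP) and unsorted arrays side by side. Points are arrays with their replicate letter and bars are group means. CDK6, CDKN1C and CDKN2B lie above both unsorted arrays on all 8 sorted arrays, CCND3 lies below them, and CDK4 and RB1 overlap in all groups.

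CCND1, cyclin D1, links growth signals to CDK4 and CDK6. Its probe set 208712_at read 9585, 4827, 4166 and 6213 in side population replicates a to d. It read 4437, 2196, 5305 and 4449 in non-side population replicates a to d, and 4912 and 4792 in unsorted cells. Replicate a of the side population stood highest and replicate b of the non-side population lowest, and all 3 groups overlapped. The means were 6198 ± 2414 (SD, n = 4) in the side population, 4097 ± 1331 (SD, n = 4) in the non-side population and 4852 ± 84.9 (SD, n = 2) in unsorted cells.

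The side population exceeded the non-side population for CCND1 by 0.59 ± 0.30 (SE) on the log2 scale, with a 95% interval from -0.04 to 1.23 and a limma adjusted p of 0.997, and was not called. The differences from unsorted cells were 0.28 ± 0.36 for the side population and -0.32 ± 0.36 for the non-side population, with limma adjusted p of 0.764 and 0.680. In order of their means, the side population came first, then unsorted cells, then the non-side population, and no neighbours in that order differed beyond their spread. By replicate letter the side minus non-side difference was 1.11 for a, 1.13 for b, -0.35 for c and 0.48 for d. In a fit that kept letters a and b apart from c and d, it was 1.12 ± 0.35 within a and b (limma adjusted p = 0.0603) and 0.07 ± 0.35 within c and d. The difference between those, 1.06, was not called (limma adjusted p = 0.194). When side population a, whose actin ratio was high, was left out, the value within a and b was 0.63 ± 0.38. Within these letters the source label names no line for the side population and AGS for the non-side population. The sorted population and this label cannot be told apart there.

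The second CCND1 probe set, 208711_s_at, ran another way. It read 1125, 721, 1581 and 1027 in side population replicates a to d, 1309, 944, 985 and 868 in non-side population replicates a to d, and 2589 and 2423 in unsorted cells. Every sorted array lay below both unsorted arrays, while the sorted groups overlapped. In the fit of every probe set, the non-side population was lower than unsorted cells by a log2 difference of -1.30 ± 0.30 (limma adjusted p = 0.0361), which was called, and the side population differed by -1.22 ± 0.30 (limma adjusted p = 0.0573), which was not. The call was lost without non-side population replicate b (0.0520) or d (0.0812), without unsorted replicate a (0.363) or b (0.229), with no filter (0.0505) and with quantile normalization (0.0550), all as limma adjusted p. The side population difference was called without side population replicate c (0.0374) or non-side population replicate b (0.0491), under the replicate block (0.0310), with letters as batches (0.0120) and within letters a and b (0.00816). The replicate block joined unsorted a and b to sorted a and b by letter, a link that the titles do not give. The sorted populations differed by 0.08 ± 0.25 on this probe set. Over the 10 arrays the correlation of both CCND1 probe sets was 0.05, and the log2 ratio of 208712_at to 208711_s_at was 1.22 to 3.09 on sorted arrays and 0.92 and 0.98 on unsorted ones. The 3.09 was that of side population a, whose control ratios were high, and the next was 2.74 in side population b. A statement about CCND1 between sorted and unsorted cells therefore depends on the probe set read.

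CCND2, cyclin D2, was the only G1 gene below the filter. Its brightest probe set, 231259_s_at, read 71.9, 38, 6.7 and 54.7 in side population replicates a to d. It read 107.5, 109.8, 81.5 and 84.7 in the non-side population and 84.9 and 89.3 in unsorted cells. Each side population array lay below every other array, and the non-side population overlapped unsorted cells. Medians of all probe sets on an array were 58.7 to 85.4, and 6 of the 10 readings lay above the median of their array, while side population b, c and d and non-side population c lay below it. In the fit without a filter, the side minus non-side difference was -1.32 ± 0.49 with an unadjusted p of 0.0177 and a limma adjusted p of 0.977, which was not called. The 3 other CCND2 probe sets lay below the array median on every array, with values from 2.8 to 58.7.

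CCND3, cyclin D3, read 2807, 2772, 1655 and 2502 on 201700_at in side population replicates a to d, 2407, 2043, 2079 and 2519.7 in the non-side population, and 3099 and 2986 in unsorted cells. All 8 sorted arrays lay below both unsorted arrays. The differences from unsorted cells were -0.35 ± 0.26 for the side population and -0.43 ± 0.26 for the non-side population, and neither was called (limma adjusted p = 0.530 and 0.386). The sorted populations differed by 0.08 ± 0.21. The dim second probe set, 1562028_at, read 36.6 to 88.4 in the non-side population and 23.9 to 36.5 in the side population, and averaging both sets turned the sign of the side minus non-side difference to -0.48.

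CDK4, a kinase partner of the D cyclins, had 1 probe set. This set, 202246_s_at, read 7595, 6847, 8031 and 7884 in side population replicates a to d, 8481, 9260.4, 5811 and 7945 in the non-side population, and 8122 and 7101 in unsorted cells. The groups overlapped throughout. The side minus non-side difference was -0.03 ± 0.19 with a 95% interval from -0.44 to 0.37, or a fold between 0.736 and 1.29. Against unsorted cells the differences were -0.00 ± 0.23 and 0.03 ± 0.23.

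CDK6, the other kinase partner, had 7 probe sets, of which 6 passed the filter. Its representative, 224847_at, read 8536, 9453, 7289 and 6961 in side population replicates a to d. It read 5695, 5691, 7035 and 6948 in the non-side population and 4851 and 5218 in unsorted cells. All sorted arrays lay above both unsorted arrays, and the sorted groups overlapped only through letters c and d. The means were 8060 ± 1150 (SD, n = 4), 6343 ± 750.4 (SD, n = 4) and 5035 ± 260 (SD, n = 2).

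On this probe set the side population exceeded unsorted cells by 0.67 ± 0.22, or 1.59-fold, with a 95% interval of the fold from 1.14 to 2.22 and a limma adjusted p of 0.130, which was not called. It was called with letters as batches (limma adjusted p = 0.0192) and within letters a and b (0.0133). The non-side population exceeded unsorted cells by 0.33 ± 0.22 (limma adjusted p = 0.456), and the side population exceeded the non-side population by 0.34 ± 0.18 (limma adjusted p = 0.997). The order was therefore side population, non-side population, unsorted cells, with no neighbours differing by the test. Letter by letter, CDK6 in the side population differed from the non-side population by 0.58 for a, 0.73 for b, 0.05 for c and 0.00 for d. Within letters a and b it was 0.66 ± 0.19 and was called (limma adjusted p = 0.0470), as were 9.15% of all genes there, and within c and d it was 0.03 ± 0.19. The difference between these pairs of letters, 0.63, was not called (limma adjusted p = 0.161), and without side population replicate a the value within a and b was 0.73 with a limma adjusted p of 0.155. Since the source label names no line for side population a and b and names AGS for non-side population a and b, the sorted population and this label cannot be told apart there.

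The other CDK6 probe sets did not follow 224847_at against unsorted cells. All 5 others above the filter had lower means in both sorted groups, from -1.09 (235287_at) to -0.13 (224851_at) in the side population and from -1.20 (235287_at) to -0.18 (207143_at) in the non-side population, and none was called. Between the sorted populations, 4 of these 5 were higher in the side population, by 0.11 to 0.36, and 207143_at was lower by -0.44. For 224851_at the letters again parted, with 0.93 and 1.22 for a and b and -0.35 and -0.38 for c and d. The seventh set, 231198_at, read 25.5 to 61.9 in the side population, 103.5 to 134.5 in the non-side population and 136 and 109 in unsorted cells, opposite in direction to the representative (correlation -0.82 over 10 arrays), and its side minus non-side difference of -1.18 ± 0.35 had an unadjusted p of 0.00526 and a limma adjusted p of 0.984 without a filter. With the mean over all 7 sets, the difference of the side population from unsorted cells was -0.41 instead of 0.67.

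**Figure D2:**
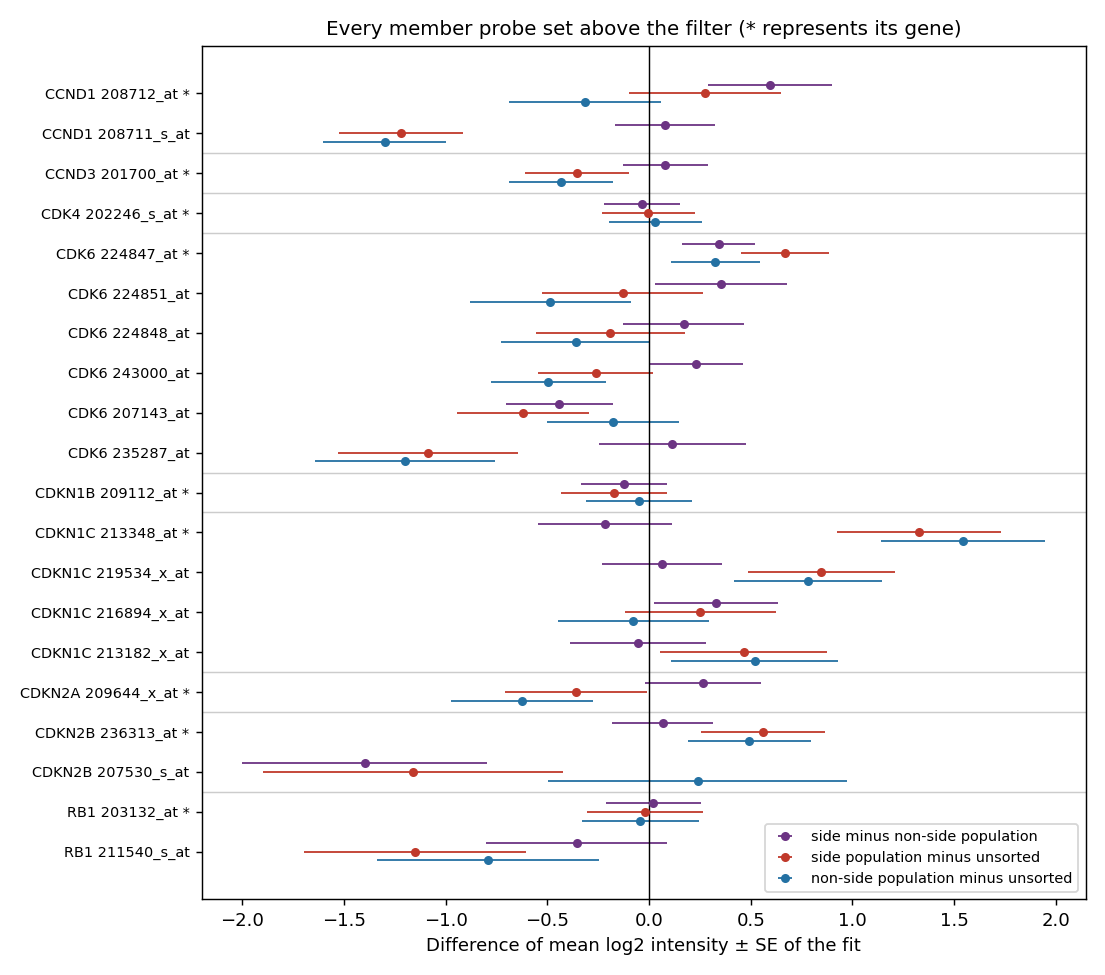
Difference of mean log2 intensity between groups (x axis, log2 units, bars ± SE of the fit) for each of the 20 member probe sets above the filter, with an asterisk at the set that represents its gene. CCND1, CDK6, CDKN1C and CDKN2B have sets that differ in sign in at least 1 comparison against unsorted cells, from 0.67 to -1.09 for CDK6 in the side population.

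**Figure D3:**
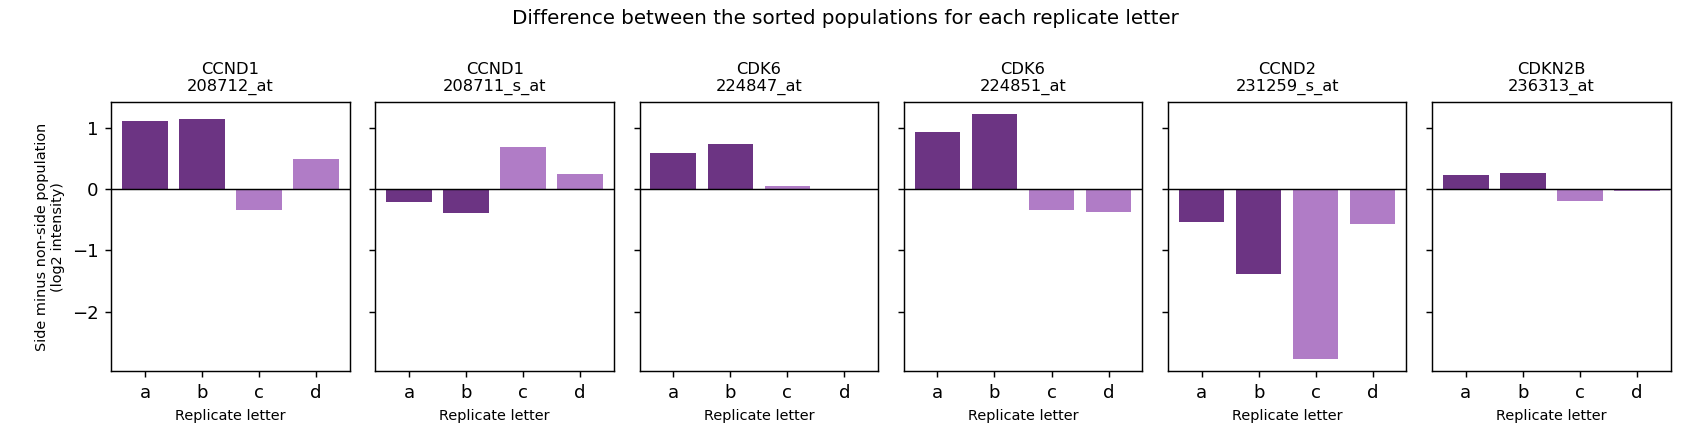
Side minus non-side difference in log2 intensity (y axis) for each replicate letter (x axis), for 6 probe sets of CCND1, CDK6, CCND2 and CDKN2B, with letters a and b in dark and c and d in light bars. CCND1 208712_at and both CDK6 sets lie between 0.58 and 1.22 for a and b and between -0.38 and 0.48 for c and d, CCND1 208711_s_at goes the other way, and CCND2 is below 0 for every letter.

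CDKN1B, the p27 inhibitor that restrains cyclin and CDK complexes, had 1 probe set, 209112_at. It read 3548, 4203, 5215 and 4179 in side population replicates a to d, 4157, 6570, 3978 and 4193 in the non-side population, and 4365 and 5242 in unsorted cells. The groups overlapped, and the highest value was that of non-side population replicate b. The differences were -0.12 ± 0.21 between the sorted populations, -0.17 ± 0.26 for the side population against unsorted cells and -0.05 ± 0.26 for the non-side population, none of which was called. Over the 10 arrays CDKN1B ran opposite to CCND1 208712_at with a Pearson correlation of -0.86, a description of arrays that share groups and processing. It was picked as the largest in size among pairs of tested G1 genes, and the next was 0.62, of CDK6 with CDKN2B. Its extremes were non-side population b (CCND1 2196, CDKN1B 6570) and side population a (9585 and 3548), whose actin ratio was high. The second CCND1 probe set, which correlated at 0.05 with the first, was not set against CDKN1B.

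CDKN1C, the p57 inhibitor of the same family, was the only G1 gene whose representative probe set was called. Its probe set 213348_at read 394.8, 144, 336 and 230.4 in side population replicates a to d. It read 371, 199, 372 and 297 in the non-side population, and 94.2 and 104 in unsorted cells. All 8 sorted arrays lay above both unsorted arrays, and in both sorted groups replicate b was the lowest. The means were 276 ± 111 (SD, n = 4), 309.8 ± 82.1 (SD, n = 4) and 99.1 ± 6.93 (SD, n = 2).

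CDKN1C was 2.92-fold higher in the non-side population than in unsorted cells, with a 95% interval from 1.63 to 5.23 (log2 difference 1.55 ± 0.39, limma adjusted p = 0.0452). In the side population it was 2.51-fold higher, with a 95% interval from 1.402 to 4.50 (1.33 ± 0.39, limma adjusted p = 0.0909), which was not called. The sorted populations differed by -0.22 ± 0.32, a difference that was not called. The filter was set on the mean of all 10 arrays, at an intensity of 149. Both unsorted readings, 94.2 and 104, lay below it, so CDKN1C entered the tests only through the sorted arrays, where it was higher. The non-side call was lost when any of 7 arrays was left out: side population c (limma adjusted p = 0.0528) or d (0.0599), non-side population a (0.102), c (0.0557) or d (0.0807), and unsorted a (0.431) or b (0.272). The side population difference was called without side population replicate b (1.60, limma adjusted p = 0.0461) and with letters as batches (0.0365). The non-side call was also lost with a constant of 50 (0.0550), no filter (0.0795), quantile normalization (0.0867) and every probe set tested on its own (0.0535), with the direction against unsorted cells kept in each of these limma fits.

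The 3 other CDKN1C probe sets above the filter, all with the suffix x that marks probes able to match other sequences, differed less. The set 219534_x_at tracked the representative with a correlation of 0.88 and was higher by 0.85 ± 0.36 in the side population (limma adjusted p = 0.216) and by 0.78 ± 0.36 in the non-side population (0.237). The differences of 213182_x_at were 0.47 and 0.52, and those of 216894_x_at were 0.25 and -0.08, none of them called. The fifth set, 219533_at, read 2.5 to 5.3 on all arrays, far below every array's median.

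CDKN2A, which encodes p16 and, in another reading frame, ARF, was dim. Only the set 209644_x_at passed the filter, and it has the suffix x that marks probes able to match other sequences. It read 112, 152, 209 and 222 in side population replicates a to d, 135, 110.4, 193 and 128 in the non-side population, and 208 and 227 in unsorted cells. All non-side population arrays lay below both unsorted arrays, and side population replicates c and d overlapped them. The differences from unsorted cells were -0.62 ± 0.35 for the non-side population (limma adjusted p = 0.346) and -0.36 ± 0.35 for the side population, and the sorted populations differed by 0.27 ± 0.28. The sets 207039_at (9.7 to 59.5) and 211156_at (2.8 to 16.9) lay below the array median on all 10 arrays.

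CDKN2B, the p15 inhibitor next to CDKN2A on chromosome 9, read 1487, 2190.3, 1988 and 1286 on 236313_at in side population replicates a to d. It read 1269.5, 1821, 2271 and 1316 in the non-side population, and 1088 and 1216 in unsorted cells. All sorted arrays lay above both unsorted arrays, and the sorted groups overlapped. The differences from unsorted cells were 0.56 ± 0.30 for the side population and 0.49 ± 0.30 for the non-side population (limma adjusted p = 0.358 and 0.395), and that between sorted populations was 0.07 ± 0.25. None was called. The set 207530_s_at read 12.7, 134, 96.1 and 198 in the side population, 288, 115, 265 and 269 in the non-side population and 174 and 199.7 in unsorted cells. Its side minus non-side difference of -1.398 ± 0.60 was not called (limma adjusted p = 0.986) and was -3.97 for letter a against 0.21 to -1.41 for the others, and its correlation with 236313_at was -0.14. The value for letter a rests on the 12.7 of side population a, the array with the high actin ratio.

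Of the neighbours of these 2 genes on chromosome 9, MTAP, an enzyme of the methionine salvage pathway, read 407, 518, 542 and 903 in side population replicates a to d, 1517, 1236, 686 and 755 in the non-side population and 923 and 1022 in unsorted cells. Its side minus non-side difference was -0.80 ± 0.30, which was not called (limma adjusted p = 0.997). DMRTA1 (3.9 to 11.4) and CDKN2B-AS1 (1.2 to 6.2) were below the filter on all arrays.

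RB1, the pocket protein that the D cyclin kinases inactivate, read 2328, 1768, 1605 and 1485 on 203132_at in side population replicates a to d. It read 1436, 2313, 1970.2 and 1413 in the non-side population and 1543 and 2089 in unsorted cells. The groups overlapped fully. The differences were 0.02 ± 0.23 between the sorted populations, -0.02 ± 0.28 for the side population against unsorted cells and -0.04 ± 0.28 for the non-side population, with a 95% interval of the first from -0.47 to 0.52. The dim set 211540_s_at was lower in the side population than in unsorted cells by -1.15 ± 0.55, which was not called (limma adjusted p = 0.265).

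**Figure D4:**
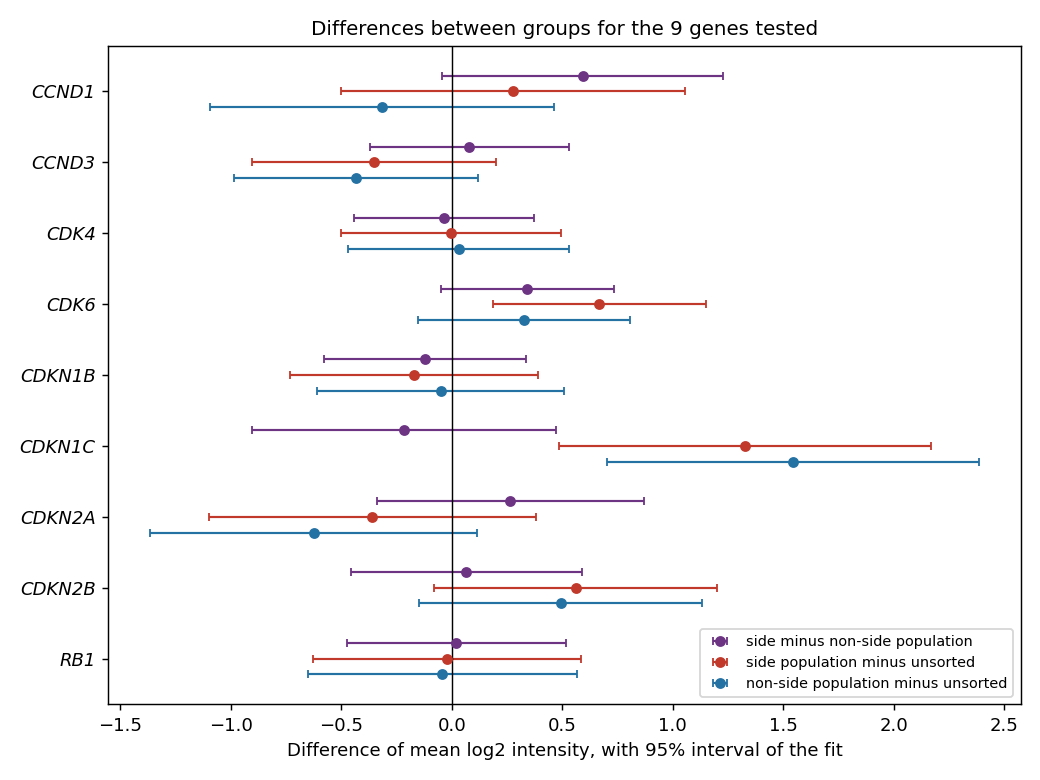
Difference of mean log2 intensity (x axis) with the 95% interval of the fit for the 9 tested G1 genes (y axis), for the 3 comparisons. The intervals of CDKN1C against unsorted cells, from 0.49 to 2.17 and from 0.70 to 2.39, and that of CDK6 in the side population, from 0.19 to 1.15, leave out 0, and all others include it.

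Other genes of the pathway were read from 5 lists. These lists were chosen with earlier results of these data known, so their counts and medians are descriptions and no test of a list. Over all 9888 genes, for the side against the non-side population, the side population against unsorted cells and the non-side population against unsorted cells in that order, limma called 0%, 2.35% and 3.52%, the share with a higher mean in the first group was 57.3%, 53.4% and 49.2%, and the median difference was 0.04, 0.04 and -0.01. Among E cyclins, CDK2 and other G1 regulators (10 tested of 11), 4 were higher and 6 lower in the side than in the non-side population, 5 and 5 in the side population than in unsorted cells, and 3 and 7 in the non-side population than in unsorted cells. The medians were -0.07, -0.04 and -0.13. The called member was CDKN2D, the INK4 inhibitor p19, which was 3.42-fold higher in the non-side population (309 ± 113, SD, n = 4) than in unsorted cells (81.6 ± 12.3, SD, n = 2), with a log2 difference of 1.77 ± 0.36 (limma adjusted p = 0.0157). In the side population (173 ± 25.0, SD, n = 4) the difference was 1.02 ± 0.36 and not called (limma adjusted p = 0.144). The side minus non-side difference of -0.75 was not called either (limma adjusted p = 0.997). In unsorted cells CDKN2D lay below the filter's intensity of 149, so it entered the tests only through the sorted arrays. The CDKN2D call was lost without unsorted replicate a (0.210) or b (0.200) and with quantile normalization (0.0577).

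Of 12 pocket proteins and E2F genes, 7 were higher and 5 lower between the sorted populations, 8 and 4 in the side population against unsorted cells, and 6 and 6 in the non-side population, with medians of 0.04, 0.14 and 0.02. E2F7, an atypical E2F that represses E2F targets, rose in both sorted groups, by 1.44 ± 0.32 in the side population (limma adjusted p = 0.0350) and by 1.25 ± 0.32 in the non-side population (0.0482). Its means were 1441 ± 455 (SD, n = 4), 1248 ± 315 (SD, n = 4) and 512 ± 83.7 (SD, n = 2). The first call was lost without side population a, b or c, non-side population d or either unsorted array, and the second without side population a or c, non-side population b, c or d or either unsorted array, with limma adjusted p up to 0.511. The first was also lost with no filter (0.0544) and with arrays labelled AGS alone (0.148), and the second with a constant of 50 (0.0519), no filter (0.0667), eBayes without a trend (0.0513) and the compared groups alone (0.0624). E2F8, a repressor of the same kind, had differences of -0.68 and -0.91 and was not called.

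Of 12 genes for turnover of D cyclins and p27, 10 were higher and 2 lower in the side than in the non-side population, with a median of 0.23 against 0.04 over all genes, and none was called, as 0% of all genes were. Against unsorted cells 9 were higher and 3 lower in the side population and 8 and 4 in the non-side population, with medians of 0.17 and 0.08, and none was called, against 2.35% and 3.52% of all genes. The smallest p between the sorted populations belonged to DDB1, a ubiquitin ligase adaptor (0.61 ± 0.24), and FBXO31, an F-box protein for cyclin D1 (0.42 ± 0.23). Against unsorted cells CUL1, the SCF scaffold, differed by -0.64 in the side population and -0.97 in the non-side population, and DDB1 by -1.03 in the latter (limma adjusted p = 0.0634). FBXO4 went the other way, by 0.74 ± 0.31 in the side population and 0.94 ± 0.31 in the non-side population (limma adjusted p = 0.234 and 0.111).

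Of 13 tested E2F target genes, which serve DNA replication, 8 were higher and 5 lower between the sorted populations (median 0.15), and 5 were higher and 8 lower in each sorted population against unsorted cells (medians -0.13 and -0.11), with none called. MCM3, a helicase subunit, had differences of 0.57 ± 0.24, -0.50 ± 0.29 and -1.07 ± 0.29 in the 3 comparisons in that order, and the last had a limma adjusted p of 0.0596. CDT1, which loads the helicase, differed by 0.72 ± 0.34 between the sorted populations, and TK1 by -0.54 between side population and unsorted cells.

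Of 10 transcription factors known to act on CCND1 or CDKN1B, 5 were higher and 5 lower between the sorted populations, and 8 were higher and 2 lower in each sorted population against unsorted cells, with medians of 0.06, 0.80 and 0.70 against 0.04, 0.04 and -0.01 over all genes. Called were 0, 3 and 2 of the 10 in these comparisons, against 0%, 2.35% and 3.52% of all genes. Of all genes, 57.3%, 53.4% and 49.2% were higher. Since this list was chosen with earlier results of these data known, its counts and medians only describe these arrays. EGR1, an immediate early factor, rose 3.50-fold in the side population (1.81 ± 0.34, limma adjusted p = 0.0135) and 5.63-fold in the non-side population (2.49 ± 0.34, limma adjusted p = 0.00169). CTNNB1, beta-catenin, rose by 1.31 ± 0.27 and 1.18 ± 0.27 (limma adjusted p = 0.0236 and 0.0284), and ETS2 rose by 1.55 ± 0.35 in the side population (0.0366) and differed by 1.21 ± 0.35 in the non-side population (0.0712, not called). All of these calls except EGR1 in the non-side population were lost without either unsorted array, and that of EGR1 was lost without unsorted replicate a (0.0805). The calls in the side population for CTNNB1 and ETS2 were also lost without side population a, b or d and with arrays labelled AGS alone (0.120 and 0.148), that for ETS2 with no filter (0.0581), and that for CTNNB1 in the non-side population without non-side population a or d. MYC differed by -0.04, -0.11 and -0.07 in the 3 comparisons.

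**Figure D5:**
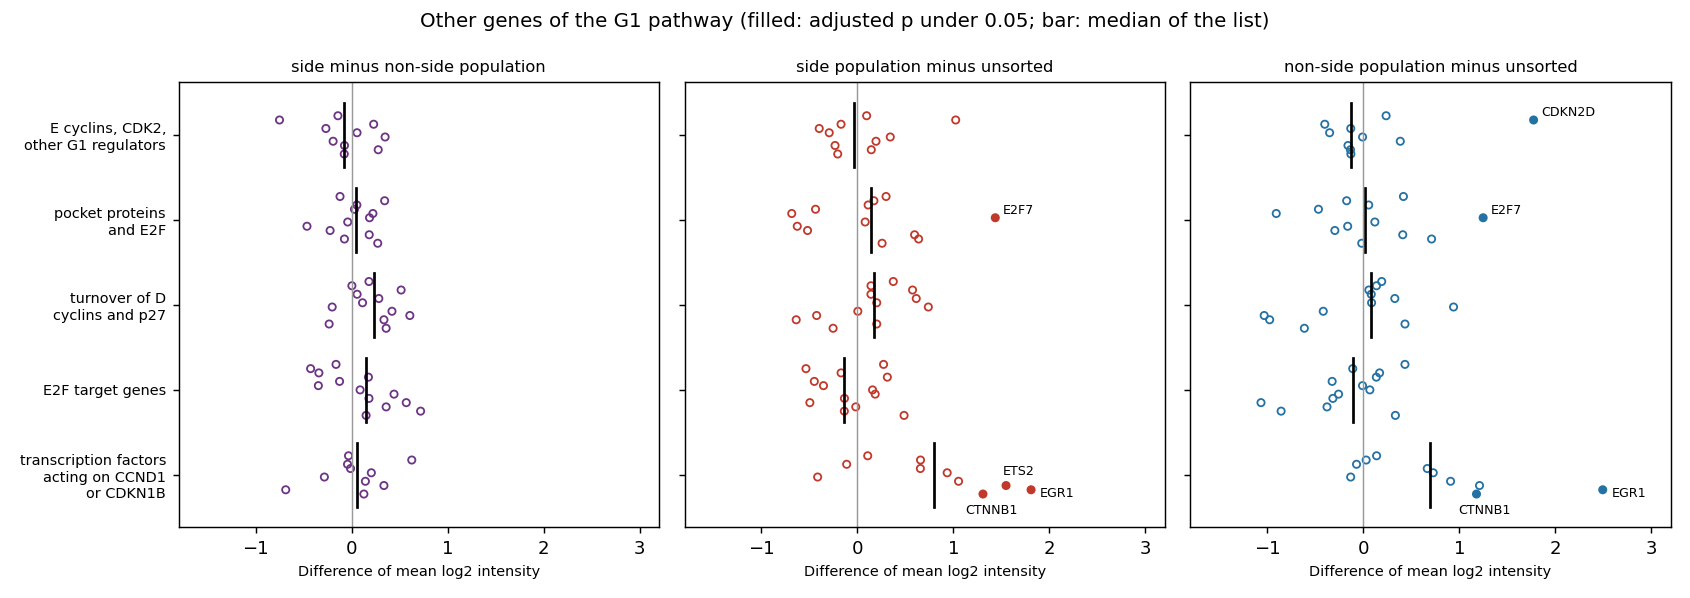
Difference of mean log2 intensity (x axis) of every tested gene of the 5 pathway lists (rows) in the 3 comparisons (panels), with bars at list medians and filled points at a limma adjusted p under 0.05. No gene is filled between the sorted populations, and the transcription factors stand furthest from 0 against unsorted cells, with medians of 0.80 and 0.70. The lists were chosen with earlier results of these data known.

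For likeness, each G1 gene was read through its representative probe set. For CDK6 that set correlated with the other CDK6 sets from -0.82 to 0.36, and for CCND1 at 0.05 with the second set. The genes whose log2 values ran most like each G1 gene over the 10 arrays were named by the highest Pearson correlation among genes tested. They were CTDSP2 (0.96), TRRAP and COPG2 for CCND1, KBTBD2 (0.97), ZCCHC14 and EHBP1 for CDK6, and PI3 (0.97), TMEM268 and DDIT4 for CDKN1C. For CDKN1B they were UBE2V2 (0.97), SAR1B and MAGOHB, and for CDK4 IDH3B (0.96), NPC2 and MRPL11. LMNA (0.94) led for CCND3, ZBTB41 (0.92) for CDKN2B, ZCCHC7 (0.91) for CDKN2A and LIMD1 (0.85) for RB1. None of the 9 tested G1 genes was among the 3 closest to another, and CCND2 was not tested. With 9888 genes to choose from, that outcome was likely in any case and says nothing about shared control. Each correlation was picked as the highest over all genes tested, on 10 arrays that share groups and processing, so it is only a description.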

How the data were processed

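The authors deposited linear intensities of 54675 probe sets for each of 10 single-channel arrays of biotin-labelled total RNA. The authors used GCOS 1.4, per the submitters' processing notes, which give no settings. The trimmed mean (2% left out at each end) was 500.065 to 500.095 on every array, so no further scaling was applied. 0 pairs of arrays held identical values.

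The platform annotation gave 1 symbol for 41097 probe sets, several for 1801 and none for 11777. Each of 19775 genes was represented by its probe set of highest mean log2(intensity + 6.1), where 6.1 is the 10th percentile of all intensities, so fold changes of dim genes are understated. The 9888 genes at or above the median (an intensity of 149) entered a limma fit (3.58.1, R 4.3.3) with 3 groups in 1 fit and eBayes with a trend. The same rule over probe sets left 20549. The fitting code was run on simulated data with independent noise and no structure by letter or label. That run checked the code, not the power to find differences of the sizes seen here. The number of arrays, above all the 2 unsorted ones, limits the precision.

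The G1 genes and the pathway lists were chosen with earlier results of these data known, as was the division of replicate letters into a and b against c and d. The text names all 10 genes with every probe set, the called members of each list or otherwise those of smallest p, and for each tested gene the closest by correlation. Promoter letters came from RefSeq windows on GRCh38.p14. Alternatives were the added constant, filter, normalization, choice of probe set, arrays included, each array left out, and the replicate letter as a block or batch. Running them on the second CCND1 probe set and on the called list genes was chosen after seeing the data.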

Additional observations from a re-analysis of the deposited data

Results flagged for a closer look

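Among the 58 groups of 4 sorted arrays that the 29 probe sets give, 4 held an array far from the other 3 by Dixon's test at its 95% critical value, where chance marks about 1 group in 20. CDK6 224848_at read 4283 in non-side population replicate c against 1659 to 1944 in the others. CDKN1B 209112_at read 6570 in non-side population replicate b against 3978 to 4193. CDKN1C 219534_x_at read 108.6 in side population replicate b against 166 to 177. CDKN2B 207530_s_at read 115 in non-side population replicate b against 265 to 288. Without non-side population replicate b, the side minus non-side difference of CDKN1B turned from -0.12 to 0.05, and neither value was called.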

How the results depend on the processing

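Each of 25 alternatives was run on the 9 tested genes in 3 comparisons. Of the 663 values, 588 kept their direction and their side of the threshold, 11 lost and 5 gained the call, and 59 changed sign, with 0 of those called. CDKN1C and CDKN2A were not tested with the 75th percentile filter or the mean over probe sets. With 1 unsorted array left out, the other is assumed to vary like the sorted groups. The cause of the changes below was not tested.

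The count of called genes in the non-side population against unsorted cells went from 1 to 0 with a constant of 50, no filter, the 75th percentile filter, quantile normalization and the mean over probe sets, and ranged from 0 to 1 with 1 array left out. On single probe sets the 1 called was of CCND1, not CDKN1C. In the side population against unsorted cells it went from 0 to 2 with letters as batches and averaged (CDK6, limma adjusted p = 0.0192, and CDKN1C, 0.0365) and to 1 within letters a and b (CDK6, 0.0133), and was 0 to 1 with 1 array left out. Between the sorted populations it was 1 within letters a and b (CDK6). CDKN1C was 1.24 to 1.74 higher in the non-side population than in unsorted cells in all 23 alternatives that tested it, with limma adjusted p from 0.0172 to 0.431.

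The replicate block called 0 members between the sorted populations, 0 in the side population and 1 (CDKN1C) in the non-side population against unsorted cells, with 734 and 967 of all genes called in the side and non-side population against unsorted cells, in place of 232 and 348. Same-letter sorted arrays correlated in their deviations from the group means by 0.21, 0.50, -0.12 and 0.36 for a to d, and side population c and d correlated best with another letter, so the letters were not taken as pairs. Under the replicate block CDK4 in the side population against unsorted cells was 0.057, and RB1 was 0.11 and 0.088 in the side and non-side population. This block put unsorted a and b with sorted a and b, though their titles share only the letter. Its values against unsorted cells rest on that link.

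Signs that changed between the sorted populations were, with quantile normalization, CDKN2B -0.00049 and RB1 -0.019. With the mean over probe sets they were CCND3 -0.48, CDK6 -0.057, CDKN2B -0.67 and RB1 -0.17. With arrays labelled AGS they were CCND3 -0.15, CDK4 0.036, CDKN1B 0.015, CDKN2B -0.020 and RB1 -0.17. Within letters c and d they were CCND3 -0.17, CDK4 0.23, CDKN1B 0.19, CDKN2B -0.11 and RB1 -0.11. With 1 array left out, ranges were -0.17 to 0.050 for CDK4, -0.22 to 0.048 for CDKN1B, -0.42 to 0.056 for CDKN1C, -0.055 to 0.23 for CDKN2B and -0.11 to 0.16 for RB1.

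For the side population against unsorted cells, the changed signs were RB1 0.0078 with quantile normalization, CCND1 -0.47, CDK6 -0.41 and CDKN2B -0.30 with the mean over probe sets, CDK4 0.067 with arrays labelled AGS and within letters c and d, and RB1 0.18 within letters a and b. With 1 array left out, CDK4 ranged from -0.10 to 0.093 and RB1 from -0.24 to 0.20. For the non-side population they were RB1 0.027 with quantile normalization, CCND3 0.45 and CDK6 -0.35 with the mean over probe sets, CDKN1B 0.13 and RB1 0.022 within letters a and b, and CCND1 0.0020 and CDK4 -0.16 within letters c and d. With 1 array left out, CDK4 ranged from -0.066 to 0.17, CDKN1B from -0.22 to 0.082 and RB1 from -0.26 to 0.18.

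Over all genes, calls against unsorted cells fell to 9 and 12 without unsorted replicate a and to 16 and 37 without replicate b. They were 1327 and 1564 with letters as batches, 1359 and 2198 within letters a and b, 840 and 1179 within c and d, 100 and 144 with the 75th percentile filter, 437 and 196 with the compared groups alone, 144 and 321 with the mean over probe sets and 94 and 381 with arrays labelled AGS. Leaving out 1 sorted array gave 98 to 393 and 220 to 656. Between the sorted populations the count was 1 with a constant of 50, 905 within letters a and b and 0 in all other fits. Dim probe sets, such as those of CCND2, CDKN2A and CDKN1C 219533_at, are limited by signal over background.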
